A study of Homo sapiens with 6 samples.

Results

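The genes described here are CSF1, which encodes macrophage colony-stimulating factor, and 8 genes for receptors of myeloid cytokines: CSF1R, FLT3, CSF3R, CSF2RA, IL3RA, IL6R, CSF2RB and IL6ST. They were listed by name, with earlier results of these data known, and they make up 9 of the 52992 genes to which the transcripts were summed. The RNA came from NB4, an established human cell line derived from acute promyelocytic leukemia, with 6 RNA-sequencing libraries in 3 groups of 2 replicates. In the LacZ group (labelled wild type) the cells expressed a guide RNA against a bacterial gene that human cells do not have. In the sg1 and sg5 groups (labelled ARID1A-deficient) they expressed one of a pair of different guide RNAs against ARID1A, whose protein belongs to the SWI/SNF complex that remodels chromatin. All 3 groups carried Cas9 and an inducible guide RNA vector, and all received 1 µg/ml doxycycline for 7 days, which switched the guide RNA on. According to the methods of the study, the transduced cells were sorted for the fluorescent markers of the vectors and were then kept in culture without doxycycline before RNA was prepared, so each library is a pool of edited cells of 1 line. Nothing in the labels says that the replicates of a group were separate cultures, so the p-values measure only the spread between these samples, which may be technical.

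Cytokines of the colony-stimulating factor and interleukin-6 families direct the survival, proliferation and maturation of myeloid cells. Most of their receptors have no enzyme activity: a subunit that binds one ligand joins a shared signalling subunit, CSF2RB for interleukin-3, interleukin-5 and GM-CSF or IL6ST (gp130) for the interleukin-6 family, and kinases of the JAK family bound to the receptor phosphorylate STAT proteins. CSF1R and FLT3 differ from these, since they are receptor tyrosine kinases that phosphorylate their own targets. CSF3R binds G-CSF, the main growth factor of granulocytes, and acts as a pair of identical chains.

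IL6R and CSF1 are each made as alternative forms that differ in whether the protein stays in the membrane, and the exon junctions that set these forms apart are shown here as their RNA would read. IL6R occupies bases 154405193 to 154469450 of chromosome 1 in GRCh38 (GENCODE 29, plus strand). The transcript IL6R-202 has 10 exons and 1404 coding bases. Its exon 9, from 154454488 to 154454581, holds 94 coding bases and encodes the membrane-spanning part of the receptor. IL6R-201 skips that exon and has 1095 coding bases, with 29 coding bases in its last exon where IL6R-202 has 244, and it encodes a soluble receptor. In the sequences, 20 bases on either side are in lower case and the skipped exon is in capitals.
IL6R-202: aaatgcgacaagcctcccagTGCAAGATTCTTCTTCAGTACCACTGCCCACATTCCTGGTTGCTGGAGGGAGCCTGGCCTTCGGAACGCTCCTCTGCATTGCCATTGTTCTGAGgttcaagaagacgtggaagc
IL6R-201: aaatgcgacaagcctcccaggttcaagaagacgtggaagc

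CSF1 is on the same strand of chromosome 1, at 109910242 to 109930992. CSF1-201 has 1662 coding bases and CSF1-205 has 768, and both are annotated with 9 exons. In the coding sequence they differ in exon 6, which begins at 109923166 in CSF1-201 and at 109924060 in CSF1-205. As a result, 894 bases of the coding sequence are present only in CSF1-201 of this pair. Outside the coding sequence, exon 1 has 430 bases in CSF1-201 and 155 in CSF1-205, and exon 9 has 2141 and 183. The coding bases found only in CSF1-201 encode the stretch in which the precursor is cut to release the secreted factor. The shorter form is known as the form displayed at the cell surface. In the sequences, the last 20 bases of exon 5 are in lower case and the first 40 bases of exon 6 are in capitals.
CSF1-201: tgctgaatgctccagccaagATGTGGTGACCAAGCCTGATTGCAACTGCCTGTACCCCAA
CSF1-205: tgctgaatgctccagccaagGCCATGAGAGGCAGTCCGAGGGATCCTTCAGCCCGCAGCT

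All 9 genes were transcribed in all 6 libraries, and all 9 passed the filter on low counts that left 18514 genes for testing. Estimated counts per library lay between 46131178 and 54843745. On the first principal component of log2 CPM (counts scaled to a fixed library total), which held 34.4% of the variance, sg1 replicate 1 (34.3) and sg5 replicate 2 (46.8) stood apart from the other 4 libraries (-30.3 to -11.3), and both are ARID1A-deficient. The targeted gene does not check the labels at the level of RNA. ARID1A had 8164 and 9617 estimated counts in LacZ, 10671 and 8493 for sg1, and 5805 and 7338 for sg5. Its log2 fold change against LacZ was 0.22 for sg1 and -0.36 for sg5, and it was not called in either comparison. For sg1 against sg5 the value was 0.58 (unadjusted p = 0.0032 in edgeR), also without a call. The paper showed the knockout at the level of protein by immunoblot. Of the markers of NB4's own lineage, MPO had 630217 to 848367 counts, whereas ELANE, another gene of the promyelocyte granule, had 1 to 9 counts. The summed CPM of 5 granule genes was 15586 and 17629 in LacZ and 13954 to 16243 otherwise, nearly all of it MPO. AZU1 had 217.4 and 215.0 CPM in LacZ and 159.8 to 179.5 otherwise. CTSG had 92.9 and 90.7 CPM against 57.0 to 70.6, whereas MPO and PRTN3 overlapped between the groups. Markers of other cells moved with the groups in part. The summed CPM of 12 eosinophil, basophil and mast cell genes was 126 and 134 in LacZ and 55.6 to 62.7 in the ARID1A-deficient libraries, and that of 6 neutrophil genes was 367 and 461 against 158 to 288, nearly all of it MMP9. The sum of 10 monocyte and macrophage genes was 193 and 204 against 254 to 460, most of it LYZ, while CD14 stood at 42 and 46 counts in LacZ and at 10 to 35 otherwise. The erythroid and megakaryocytic sum, which was nearly all ITGA2B, was 12.3 and 16.3 against 3.01 to 3.67, the plasmacytoid dendritic sum was 14.1 and 14.3 against 11.0 to 13.7, and the lymphoid sum was 5.93 and 6.42 against 7.14 to 8.33. For the mean of both guide RNAs, 3 of 8 tested eosinophil, basophil and mast cell genes (PRG2, EPX and HDC) fell, as did ITGA2B, with edgeR at a false discovery rate of 0.1. FCGR3B, FCER1A, HBB and PF4 had no counts in any library. The part of these markers in the results was not tested.

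TPM, the share of transcripts scaled to a fixed total, is the scale on which levels can be compared between genes, because it divides by transcript length. By the mean TPM of the 2 LacZ libraries, the order was CSF3R (47.6 ± 2.3, SD), IL6R (41.9 ± 2.1), CSF2RA (20.6 ± 1.1), CSF1R (13.9 ± 1.3), CSF2RB (7.99 ± 0.12), IL3RA (4.80 ± 0.52), FLT3 (2.98 ± 0.34), IL6ST (2.55 ± 1.02) and CSF1 (1.05 ± 0.11). Summed over all transcripts, the genes for the receptors of G-CSF and interleukin-6 therefore had the highest TPM and that of the ligand the lowest. Much of the CSF3R sum came from transcripts that do not encode the receptor. In LacZ the retained-intron form CSF3R-213, of 787 bases, had 12.1 and 10.9 TPM, beside 8.68 and 12.2 for the coding form CSF3R-202. The coding form IL6R-202 had 30.1 and 27.1 TPM. The order, and the comparison of CSF3R with IL6R, are therefore not those of coding RNA. FLT3 and IL6ST were not separated by their spread, whose LacZ values were 2.74 and 3.22 TPM for FLT3 and 3.27 and 1.83 TPM for IL6ST. CSF3R and IL6R were separated in the 2 LacZ libraries, at 46.0 and 49.2 TPM against 40.4 and 43.4 TPM, and stood in the opposite order in all 4 ARID1A-deficient libraries, at 22.6 to 35.7 TPM for CSF3R and 49.4 to 63.9 TPM for IL6R. The order also depends on short transcripts, which add much TPM with few reads. As an alternative, the counts of each gene were given as CPM, relative to the total count of the library. They were divided by the effective length of the transcript with the most counts. IL6R then led in LacZ with 24.8 CPM per kilobase, followed by CSF2RA with 13.7 and CSF3R with 11.9. For CSF3R the length was that of CSF3R-210, a retained-intron form of 6074 bases, whereas the coding form CSF3R-202 has 2886. The place of CSF3R therefore depends on that choice too. IL6ST shows the effect of short transcripts within 1 gene. Its counts ranged only from 478 to 634 while its TPM ranged from 1.83 to 7.13. In the highest library, sg1 replicate 2, a transcript of 153 bases (IL6ST-208) contributed 4.73 TPM.

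**Figure D1:**
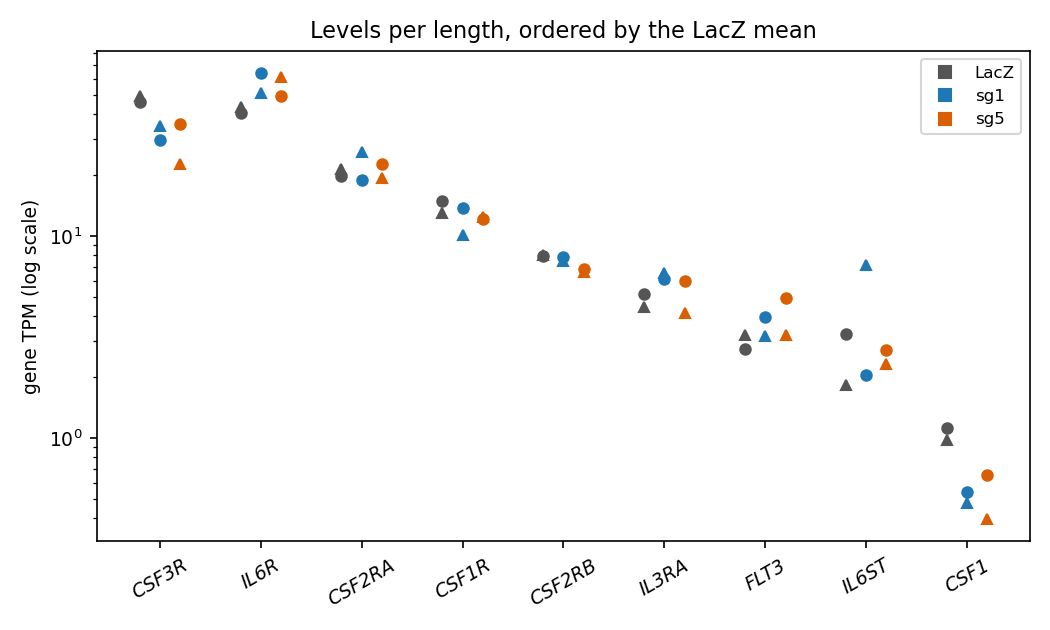
Gene TPM of the 9 genes in each library on a log scale, ordered by the LacZ mean (grey LacZ, blue sg1, orange sg5; circles replicate 1, triangles replicate 2). CSF3R lies above IL6R in the LacZ libraries (46.0 and 49.2 against 40.4 and 43.4 TPM) and below it in the 4 others, and CSF1 is lowest in every library.

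To examine whether ARID1A deficiency altered the expression of these genes, each guide RNA was compared with LacZ in CPM, which compares 1 gene between libraries. IL6R was higher and CSF1 and CSF3R were lower in value in every ARID1A-deficient library than in both LacZ libraries, with log2 fold changes near 0.6, -0.9 and -0.6, and the other 6 genes differed less. None of these differences passed the threshold over all genes. With edgeR's quasi-likelihood test and Benjamini-Hochberg adjustment over 18514 genes, 0 of the 9 were called at a false discovery rate of 0.1 for sg1, for sg5, for the mean of both guide RNAs, or between the guide RNAs. The background was also low, with 0.0378%, 0.0972%, 0.167% and 0.0054% of all tested genes called. At an unadjusted p under 0.05 the count was 3 of 9 (33.3%) for sg1, for sg5 and for their mean, where 4.15%, 7.47% and 7.21% of all tested genes passed, and 0 of 9 between the guide RNAs, where 1.38% did. These 3 were IL6R, CSF1 and CSF3R each time. The 3 comparisons with LacZ share the same LacZ libraries and are not independent of each other. DESeq2 called 0, 1, 1 and 0 of the 9 in the same 4 comparisons, the 1 being IL6R, with 0.742%, 1.35%, 1.81% and 0.027% of genes called. More were called in edgeR fits with other settings. With no filter on low counts, CSF3R and IL6R were called for each guide RNA and CSF1 was added for their mean, beside 1.05%, 1.92% and 2.13% of all genes. With both libraries that stood apart left out, 3, 2 and 4 of the 9 were called beside 2.2%, 4.09% and 4.2%, in a fit whose spread comes only from the LacZ pair. By position alone, 6 of 9 genes (66.7%) had all 4 ARID1A-deficient libraries on one side of both LacZ libraries, 3 above (IL6R, FLT3 and IL6ST) and 3 below (CSF1, CSF3R and CSF2RB), beside 20.1% of all tested genes (9.72% above and 10.4% below). In bulk RNA, fewer cells that express a gene and less of its RNA per cell cannot be told apart.

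**Figure D2:**
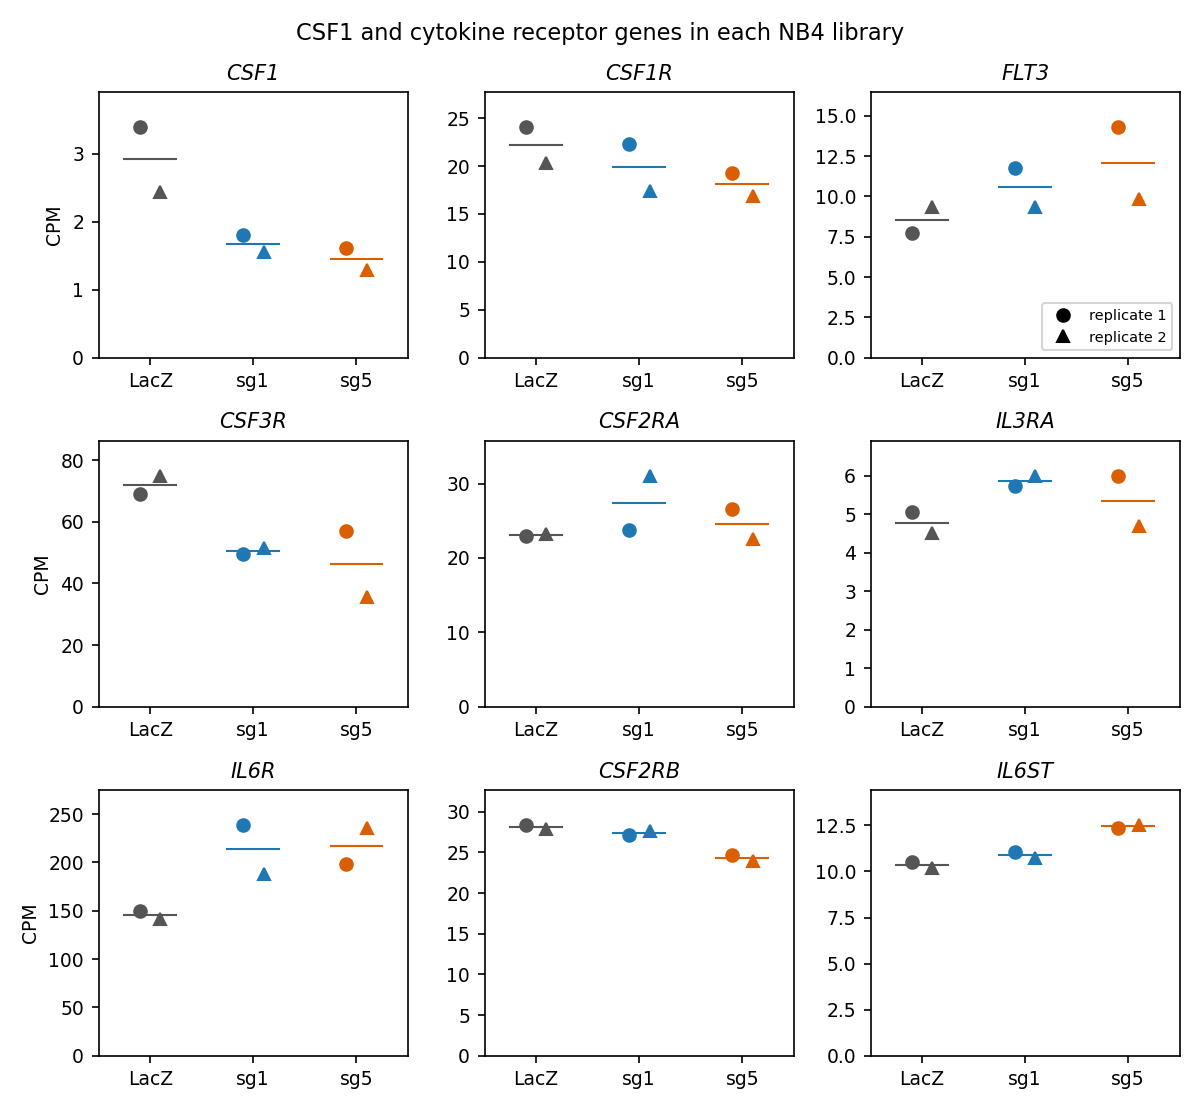
CPM of each gene by group, with 1 point for each library (circle replicate 1, triangle replicate 2) and a line at the mean of the group. IL6R (142 and 150 CPM in LacZ, 188 to 239 otherwise), CSF1 (2.44 and 3.40 against 1.29 to 1.80) and CSF3R (68.9 and 75.0 against 35.5 to 57.1) show the clearest separation, and CSF1R, CSF2RA and IL3RA overlap.

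CSF1, the only ligand among the 9, is the growth factor of monocytes and macrophages and signals through CSF1R. Its estimated counts were 179 and 123 in LacZ, then 91 and 69 with sg1 and 76 and 65 with sg5, which corresponds to 3.40 and 2.44 CPM, 1.80 and 1.55 CPM, and 1.62 and 1.29 CPM. Both LacZ libraries were above all 4 others, and the LacZ libraries differed from each other by more than did those of either other group. The log2 fold change was -0.80 ± 0.29 (SE, adjusted p = 0.993) for sg1 and -1.01 ± 0.29 (adjusted p = 0.494) for sg5. For the mean of both it was -0.90 ± 0.24, a fold of 0.535 with a 95% interval of -1.45 to -0.35 on the log2 scale (adjusted p = 0.363), which ranked the gene 252 of 18514 by p. The size rests in part on LacZ replicate 1, since leaving that library out gave -0.54 for sg1 and leaving out LacZ replicate 2 gave -1.02. With both libraries that stood apart left out, which leaves 1 library for each ARID1A guide RNA, the joint value was -0.88. The long form CSF1-201 was assigned between 91.5% and 100% of the estimated counts of the gene. Its TPM was 1.05 and 0.683 in LacZ and 0.374 to 0.538 in the other libraries. CSF1-201 is also longer than CSF1-205 in exons 1 and 9. Reads from those parts can be assigned to CSF1-201 whichever start of exon 6 was used, so the share does not tell the forms apart. The shorter form CSF1-205 was assigned 2.9 and 5.8 counts in LacZ and 0 in the 4 other libraries, too few to compare.

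CSF1R, the receptor of CSF1 and a marker of the macrophage lineage, is on chromosome 5 (150053291 to 150113372, minus strand). It had 24.1 and 20.3 CPM in LacZ, 22.3 and 17.4 CPM in sg1, and 19.3 and 16.9 CPM in sg5. The groups overlapped, and LacZ replicate 1 was the highest. The value for sg1 against LacZ was -0.16 on the log2 scale (95% interval -0.54 to 0.23) and that for sg5 was -0.30 (-0.68 to 0.09). Without sg1 replicate 2 the value for sg1 was 0.02. Between 53.7% and 82.7% of its estimated counts went to CSF1R-201, the form that encodes the whole receptor, and 17.3% to 46.3% to transcripts not annotated as protein coding. The highest and the lowest of those shares were both in LacZ, in replicate 2 and replicate 1, so they do not follow the groups.

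FLT3, the receptor of FLT3 ligand and best known in early progenitors and in acute myeloid leukemia, is on chromosome 13 (28003274 to 28100592, minus strand). It had 7.73 and 9.36 CPM in LacZ, 11.7 and 9.36 CPM in sg1, and 14.3 and 9.85 CPM in sg5. The groups are separate only by a margin below the printed precision, since sg1 replicate 2 and LacZ replicate 2 round to the same value. The log2 fold change was 0.31 ± 0.23 for sg1 (adjusted p = 0.993) and 0.50 ± 0.23 for sg5 (adjusted p = 0.680). With both libraries that stood apart left out, the value for sg5 was 0.74. That fit leaves sg5 with replicate 1 only, the library with the highest FLT3 (14.3 CPM), and its spread comes from the LacZ pair alone. The estimated counts were divided between FLT3-201, with 24 exons, and FLT3-202, which is annotated as a target of nonsense-mediated decay and has an extra exon of 132 bases (28025284 to 28025415). FLT3-202 took 46.6% and 31.5% of the LacZ counts, 36.3% and 24.1% with sg1, and 25.0% and 15.2% with sg5, which overlapped between LacZ and sg1 but not between LacZ and sg5. The coding transcript had 217 and 324 counts in LacZ against 378, 316, 504 and 422 in the ARID1A-deficient libraries. In a fit on protein-coding transcripts only, an alternative chosen once the data were known, the log2 fold change for sg5 was 0.83 (adjusted p = 0.511) and that for the mean of both was 0.64 (adjusted p = 0.538), against 0.40 with all transcripts. These shares come from a model that divides reads between overlapping transcripts, and they were not tested.

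**Figure D3:**
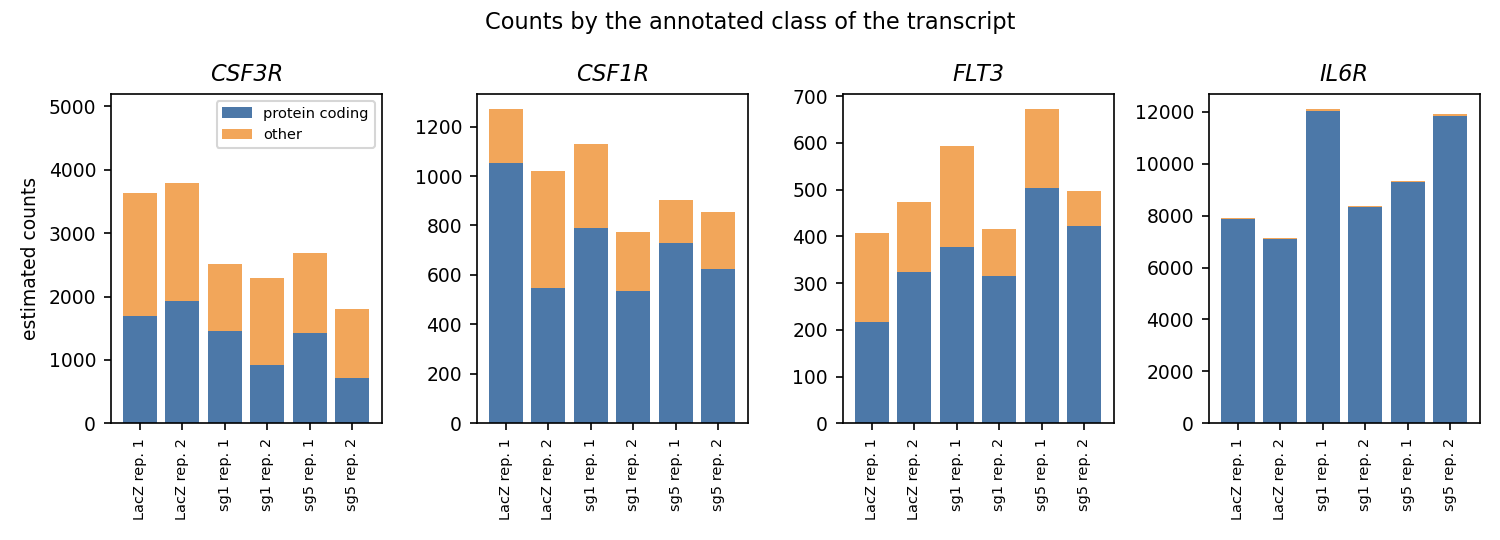
Estimated counts in each library for 4 of the receptors, stacked by whether the annotation calls the transcript protein coding (blue) or anything else (orange); the vertical scales differ. The share of other transcripts is 42.4% to 60.2% in CSF3R, 17.3% to 46.3% in CSF1R and 15.2% to 46.6% in FLT3, and below 1% in IL6R.

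CSF3R, the G-CSF receptor, had the highest TPM of the 9 in LacZ when all transcripts were summed, and is on chromosome 1 (36466043 to 36483278, minus strand). Its estimated counts were 3629 and 3782 in LacZ, then 2514 and 2295 with sg1 and 2681 and 1796 with sg5, or 68.9 and 75.0 CPM, 49.7 and 51.6 CPM, and 57.1 and 35.5 CPM. All 4 ARID1A-deficient libraries were below both LacZ libraries, and sg5 replicate 2, which stood apart on the first component, was the lowest by far. The log2 fold change was -0.51 ± 0.20 for sg1 (adjusted p = 0.993) and -0.64 ± 0.20 for sg5 (adjusted p = 0.542). For the mean of both it was -0.57 ± 0.17, a fold of 0.673 (adjusted p = 0.417). The value for sg5 depends on the library, at -1.0 without sg5 replicate 1 and -0.34 without sg5 replicate 2. With the 2 libraries that stood apart left out, which leaves 1 library for each ARID1A guide RNA, the joint log2 fold change was -0.41. About as many reads went to transcripts with a retained intron or without a reading frame as to coding ones. Coding transcripts had 1692 and 1925 counts in LacZ against 1449, 928, 1426 and 715 in the other libraries, and the others had 1937 and 1857 against 1065, 1367, 1254 and 1081. Both classes were thus lower than in LacZ in every ARID1A-deficient library, and the share of the non-coding class, 53.4% and 49.1% in LacZ and 42.4% to 60.2% otherwise, overlapped. By mean share of the counts, the retained-intron form CSF3R-210 (6074 bases) led with 31.3%. The coding forms CSF3R-202 (28.5%) and CSF3R-205 (17.6%) followed. By TPM, which divides by length, CSF3R-210 was below both CSF3R-202 and the retained-intron form CSF3R-213 in every library.

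CSF2RA, which binds GM-CSF, and IL3RA, which binds interleukin-3, lie close together in the pseudoautosomal region of chromosome X, at 1268800 to 1310381 and 1336616 to 1382689 on the plus strand. The same sequence is annotated on the other sex chromosome, so the reads of the copies cannot be told apart. CSF2RA had 22.9 and 23.3 CPM in LacZ, 23.7 and 31.1 CPM in sg1, and 26.5 and 22.5 CPM in sg5. The LacZ libraries were nearly equal and lay within the range of the others, and only sg1 replicate 2 was far from them. Its log2 fold change was 0.25 (95% interval -0.12 to 0.62) for sg1 and 0.09 (-0.28 to 0.46) for sg5. With sg1 replicate 1 and sg5 replicate 2 left out, the sg1 value was 0.43, and it then rests on sg1 replicate 2 alone. IL3RA had 5.05 and 4.52 CPM in LacZ, 5.73 and 6.01 CPM in sg1, and 5.99 and 4.69 CPM in sg5. Both sg1 libraries and sg5 replicate 1 were above LacZ, and sg5 replicate 2 lay between the LacZ values. Its log2 fold change was 0.29 (-0.19 to 0.78) for sg1 and 0.16 (-0.33 to 0.64) for sg5. Without sg5 replicate 1 the sg5 values of these genes were -0.02 and -0.01.

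IL6R, which binds interleukin-6 and hands it to IL6ST, had the smallest p-value of the 9 in each comparison with LacZ. Its estimated counts were 7912 and 7140 in LacZ, then 12092 and 8370 with sg1 and 9320 and 11911 with sg5, or 150.2 and 141.6 CPM, 239.1 and 188 CPM, and 199 and 236 CPM. All 4 ARID1A-deficient libraries were above both LacZ libraries. The highest were sg1 replicate 1 and sg5 replicate 2, the libraries that stood apart on the first component, and the other 2 were also above LacZ. The log2 fold change was 0.55 ± 0.15 for sg1 (adjusted p = 0.661) and 0.57 ± 0.15 for sg5 (adjusted p = 0.442). For the mean of both guide RNAs it was 0.56 ± 0.13, a fold of 1.48 with a 95% interval of 0.26 to 0.86 on the log2 scale (adjusted p = 0.295), which placed IL6R 141 of 18514 by p. The call depends on the test: DESeq2 gave adjusted p = 0.0655 for sg5 and 0.0153 for the mean with nearly the same fold changes (0.58 and 0.57). For the mean, edgeR on all 6 libraries gave adjusted p = 0.00117 with no low-count filter and 0.589 with a replicate block. With both libraries that stood apart left out, which leaves 1 library for each ARID1A guide RNA, the joint log2 fold change was 0.41. For sg1 alone, the value was 0.36 without sg1 replicate 1 and 0.72 without sg1 replicate 2.

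Most of the estimated counts of IL6R were assigned to the transcript of the membrane form. IL6R-202, which keeps exon 9, took 91.0% and 88.9% of the estimated counts of the gene in LacZ, 91.7% and 90.6% with sg1, and 94.8% and 92.0% with sg5. IL6R-201, which joins exon 8 directly to the last exon as in the sequence above, took 7.29% and 8.35% in LacZ, 6.19% and 7.75% with sg1, and 4.02% and 6.13% with sg5. The shares overlapped between LacZ and sg1, and both sg5 libraries lay outside the LacZ values, without a test. The last exon starts at the same base in both transcripts but has 4317 bases in IL6R-202 and 1744 in IL6R-201. Reads from its longer end can be assigned to IL6R-202 whether or not exon 9 was present. The shares therefore do not measure the membrane form against the soluble form. In counts, IL6R-202 had 7200 and 6344 in LacZ and 7585 to 11090 in the other libraries, whereas IL6R-201 had 577 and 596 in LacZ and 375 to 748 otherwise. In TPM, IL6R-202 had 30.1 and 27.1 in LacZ, 46.1 and 36.8 with sg1, and 40.7 and 45.1 with sg5, above both LacZ libraries in all 4. IL6R-201 had 4.55 and 4.81 TPM in LacZ, 5.87 and 5.94 TPM with sg1, and 3.26 and 5.67 TPM with sg5, above both LacZ libraries in 3 of 4. Neither form was tested on its own. IL6R-AS1, an antisense gene that overlaps the 5′ end of IL6R, had only 2 to 17 counts.

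CSF2RB, the common beta chain that signals for GM-CSF, interleukin-3 and interleukin-5, is on chromosome 22 (36913628 to 36940449, plus strand). It had 28.4 and 27.9 CPM in LacZ, 27.2 and 27.6 CPM in sg1, and 24.7 and 24.0 CPM in sg5. The replicates of this gene were close to each other, and sg5 lay below the other groups. In log2 fold change these differences were -0.04 (95% interval -0.31 to 0.23) for sg1 and -0.21 (-0.48 to 0.06) for sg5. The difference of sg1 from sg5 was 0.17 (95% interval -0.10 to 0.44, adjusted p = 1), the smallest p among the 9 in that comparison.

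IL6ST, or gp130, the signalling chain shared by the receptors for interleukin-6, interleukin-11, oncostatin M and leukemia inhibitory factor, is on chromosome 5 (55935095 to 55994993, minus strand). It had 10.5 and 10.2 CPM in LacZ, 11.1 and 10.8 CPM in sg1, and 12.4 and 12.5 CPM in sg5. The groups did not overlap and stood in the order LacZ, sg1 and sg5. Its log2 fold change was 0.07 (-0.27 to 0.42) for sg1 and 0.27 (-0.08 to 0.61) for sg5. In 5 of the libraries IL6ST-206 took 86.2% to 94.3% of the counts. In sg5 replicate 2 it took 45.0% and IL6ST-201 took 47.9%, although the gene total there (634) was close to that of sg5 replicate 1 (581). The annotated pseudogenes IL6STP1, IL6RP1 and CSF2RBP1 had no counts in any library.

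**Figure D4:**
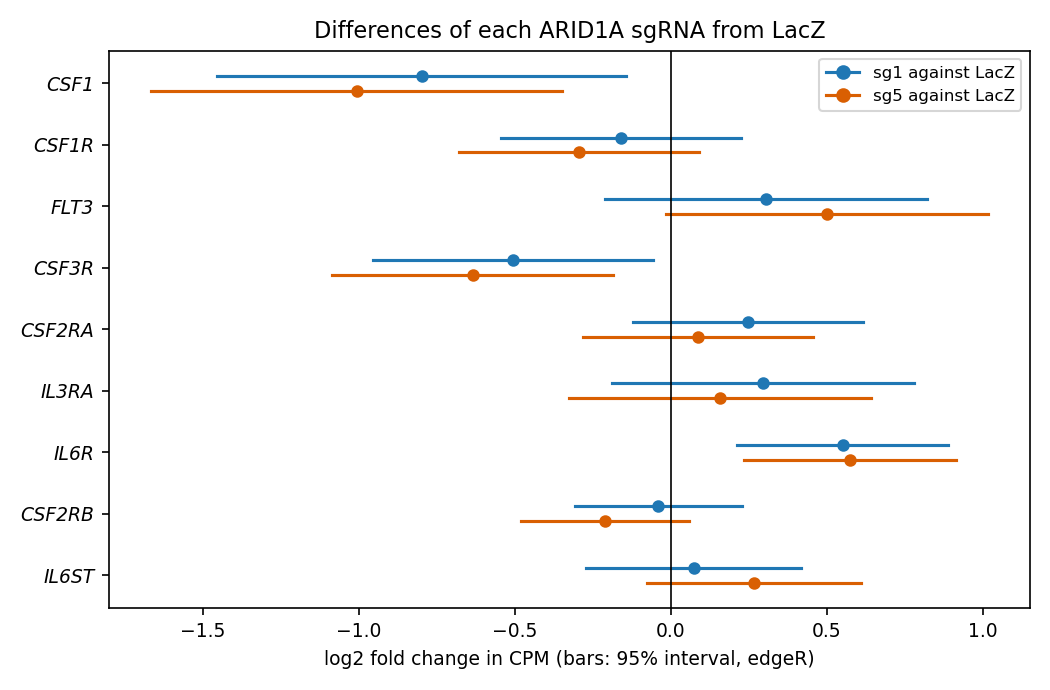
Log2 fold change of each gene for sg1 (blue) and sg5 (orange) against LacZ, with bars for the 95% interval of the edgeR fit. The intervals of IL6R lie above 0 and those of CSF1 and CSF3R below it for both guide RNAs (-0.80 and -1.01 for CSF1, -0.51 and -0.64 for CSF3R, 0.55 and 0.57 for IL6R), before adjustment for the number of genes tested.

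The 2 guide RNAs were then compared with each other. No gene of the 9 differed at an unadjusted p under 0.05, and all adjusted p-values were 1. For IL6R the difference of sg1 from sg5 was -0.02 with a 95% interval of -0.36 to 0.31. For CSF1 it was 0.21 with an interval of -0.46 to 0.88, and for CSF3R it was 0.13 with an interval of -0.32 to 0.58. Each of these intervals spans 0 and reaches past 0.3 on the log2 scale, so the values do not show that the guide RNAs acted alike.

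The other genes of these pathways were described in 7 lists of 90 genes, of which 69 passed the filter, and 0 were called with edgeR at a false discovery rate of 0.1 in any of the 4 comparisons. The smallest adjusted p-values were 0.993 for sg1, 0.570 for sg5, 0.581 for the mean of both and 1 between the guide RNAs. By unadjusted p under 0.05, 0 of the 69 passed for sg1, where 1.86% of all tested genes were higher and 2.3% lower. For sg5, 8 passed with lower and 0 with higher values, beside 4.52% of all genes lower and 2.95% higher. For the mean of both, 6 passed with lower and 0 with higher values, beside 4.32% lower and 2.89% higher. Between the guide RNAs 1 gene, STAT5A, passed with the higher value in sg1, beside 0.972% of all genes higher in sg1 and 0.411% lower.

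Among the ligands, 5 of 17 genes were tested, and the others had few or no reads. CSF2 (GM-CSF) and IL6 had no counts, CSF3 (G-CSF) had 1 count in all libraries together, IL3 had 0 to 3 counts and IL34, the second ligand of CSF1R, had 0 to 6. FLT3LG, the ligand of FLT3, had 93 to 148 counts, and its log2 fold changes were -0.08 and -0.24 for sg1 and sg5. OSM (oncostatin M), whose receptors contain IL6ST, had 222 to 317 counts and log2 fold changes of 0.27 and 0.05. CNTF and CLCF1, ligands of the same family, had 97 to 152 and 110 to 143 counts, and THPO (thrombopoietin) had 54 to 99. The median log2 fold change of the tested ligands was -0.08 for sg1 and -0.08 for sg5, beside 0.00 and -0.01 over all genes.

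Among the other receptors, 10 of 15 were tested, with a median of -0.03 for sg1 and -0.22 for sg5. KIT, the receptor of stem cell factor, had few reads, 16 and 10 in LacZ, 10 and 3 with sg1, and 0 and 3 with sg5, which gave fitted values of -0.89 and -2.94 on the log2 scale (adjusted p = 0.993 and 0.634). At such counts the fitted fold change depends on the model. IL11RA and IL27RA, whose products pair with IL6ST, had 576 to 923 and 1685 to 2307 counts and log2 fold changes of -0.12 and -0.23, and of 0.02 and -0.07. OSMR had 3 to 24 counts, and LIFR (at most 1) and the interleukin-5 receptor gene IL5RA (at most 4) were not tested.

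The kinases and transcription factors that act below the receptors showed small values. In the list of JAK and STAT proteins, 9 of 11 genes were tested, with medians of -0.00 for sg1 and -0.05 for sg5. JAK1, JAK2 and TYK2 had log2 fold changes of 0.01, 0.09 and -0.00 for sg1 and of 0.00, -0.05 and -0.13 for sg5. STAT3, the main effector of IL6ST, had -0.01 and -0.03, STAT5B had -0.10 and -0.11, and STAT6 had 0.04 and -0.02. STAT5A, an effector of CSF2RB, had -0.02 for sg1 and -0.31 for sg5 (adjusted p = 0.661). The 14 adapters and kinases near the receptors were all tested, and their medians were 0.02 and 0.03.

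**Figure D5:**
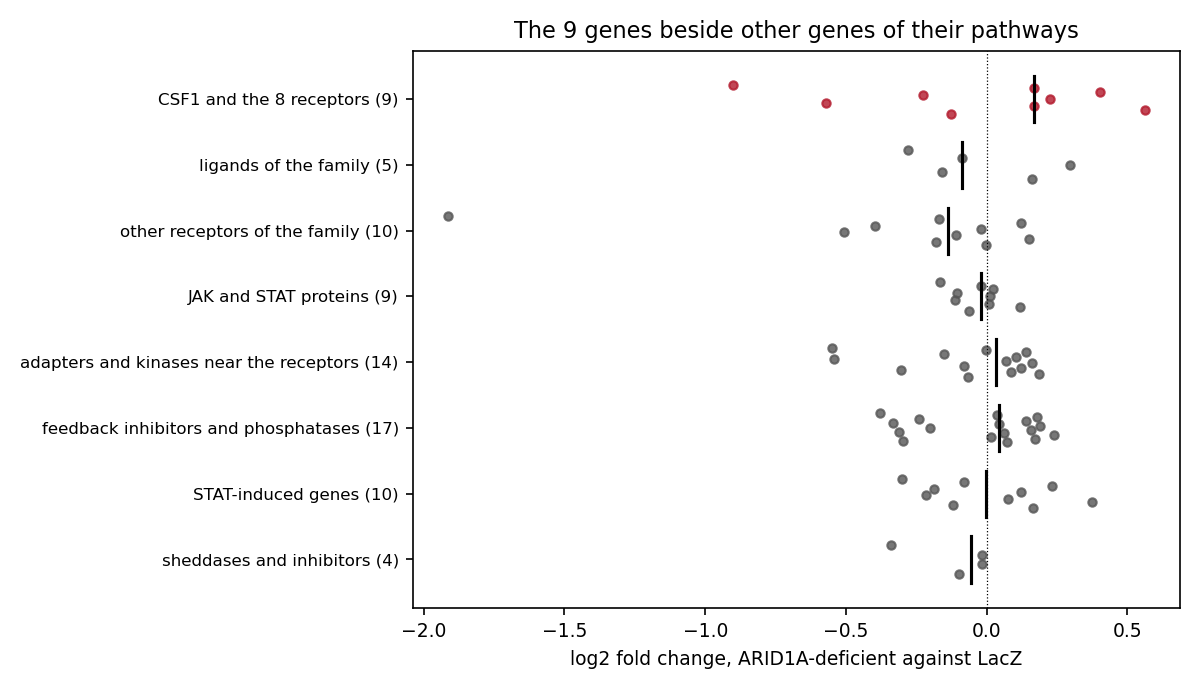
Log2 fold change of ARID1A-deficient (mean of sg1 and sg5) against LacZ for the 9 genes (red) and for the tested genes of 7 pathway lists (grey, number tested in brackets), with a black bar at the median of each list. The 9 genes run from -0.90 (CSF1) to 0.56 (IL6R) around a median of 0.17, and the list medians lie between -0.14 and 0.04; the point near -1.9 is KIT.

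Lists of feedback inhibitors and phosphatases and of genes that STAT proteins induce were also described. The first mixes induced genes with phosphatases and other inhibitors, so its medians do not read the output of the pathway. Of the feedback inhibitors and phosphatases, 17 of 18 were tested, with medians of 0.07 and 0.04. SOCS1, SOCS2 and SOCS3, which the STAT proteins induce and which inhibit JAK kinases, had log2 fold changes of -0.31, -0.19 and -0.10 for sg1 and of -0.45, -0.21 and -0.53 for sg5. CISH, a target of STAT5, had 0.10 and -0.03, and PTPN6, a phosphatase that dampens these receptors, had 0.15 and 0.12. In the list of STAT-induced genes, 10 of 10 were tested, with medians of 0.07 and -0.00. PIM1 had 0.03 and -0.19, and MYC had -0.16 and -0.21. Within these 2 lists, 4 genes passed an unadjusted p under 0.05 for sg5, all with lower values than in LacZ, and they are named here because of their values. DUSP6, a phosphatase that acts on ERK kinases, had -0.24 for sg1 and -0.43 for sg5 (adjusted p = 0.570 for sg5). SH2B3, an adapter that restrains JAK2, had -0.19 and -0.40 (adjusted p = 0.634). CCND2, a cyclin, had -0.29 and -0.32, and JUNB, a subunit of the AP-1 transcription factor, had -0.10 and -0.33 (adjusted p = 0.661 and 0.663). ADAM10 and ADAM17, the proteases that cut IL6R and CSF1 from the cell surface, had -0.06 and 0.03, and -0.10 and -0.10, and the medians of the 4 tested genes of the sheddase list were -0.08 and -0.12. None of the genes named here passed the adjusted threshold in edgeR for either guide RNA.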

How the data were processed

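RNA-sequencing was performed on 6 libraries of NB4 cells in 3 groups. The authors quantified reads per transcript with kallisto and deposited estimated counts, in which a read shared by several transcripts is divided among them, and TPM, which they scaled by effective transcript length. The submitters' processing notes name hg19 and DESeq2; the human transcript set was not given in the sources used here. Of 196354 transcripts, 181857 (92.6%) matched GENCODE 29 (GRCh38) by identifier and held 95.4% to 95.5% of the counts. Of the 84 transcripts of the 9 genes, 77 had the annotated length. Coordinates and sequences come from GENCODE 29.

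Estimated counts were summed per gene and rounded to whole numbers, and deposited TPM were summed per gene. The robust quasi-likelihood F-test of edgeR (4.0.16, under R 4.3.3) was applied after filterByExpr (minimum count 10) and TMM normalization, in a model of all 6 libraries with group as the only term. P-values were two-sided and were adjusted by the Benjamini-Hochberg method over 18514 genes, and an FDR under 0.1 was called. CPM used the TMM factors. Standard errors and 95% intervals were derived from the F statistic. The common biological coefficient of variation was 16.6%. Replicates of each group differed by more than sampling noise. The fits were also run on simulated counts with known differences. No simulated library stood apart from the others, so that run does not cover the libraries that did so here. Alternatives were DESeq2 (version 1.42.0), RLE factors, other filters, a transcript length offset, no robust estimation, an FDR of 0.05, a replicate block, fewer groups and leaving out libraries. A fit on protein-coding transcripts only and a crossed replicate block were chosen once the data were known. Python 3.11.15 was used for joins and plots.

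The 9 genes, the pathway and marker lists and the named genes (a fixed panel, and the 3 genes most correlated with CSF1 and with IL6R) were chosen with earlier results of these data known. Most genes in text were named by that rule. OSM, CNTF, CLCF1 and THPO were named as the other tested ligands, and DUSP6, SH2B3, CCND2 and JUNB for their values. Single marker genes came from the marker lists. IL6R-AS1 and the pseudogenes were named for overlap or similarity with the 9 genes. SOCS7 and MRC1, listed with the pathway and marker genes, were not matched. Protein sequences were not used here.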

Additional observations from a re-analysis of the deposited data

How the results depend on the processing

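The number of the 9 genes called was 0 in all 4 comparisons under RLE factors, the filter at a mean of 50 counts, the transcript length offset, no robust estimation, an FDR of 0.05, fitting only the 2 groups compared, and protein-coding transcripts only. With a replicate block it was also 0, and all genes called fell to 1, 1, 3 and 0; same-numbered libraries correlated at 0.0719, 0.012 and -0.206, so the numbers did not pair them. The crossed replicate block, added after the data had been seen, called 1 of 9 for sg5 and 1 for the mean of both (IL6R, adjusted p = 0.0841 and 0.0415), beside 0.848% and 1.05% of all genes. DESeq2 called 1 and 1 (IL6R). With no low-count filter, 2, 2 and 3 were called for sg1, sg5 and the mean (CSF3R and IL6R, with CSF1 for the mean), beside 1.05%, 1.92% and 2.13% of all genes. Without both libraries that stood apart, 3, 2 and 4 were called, beside 2.2%, 4.09% and 4.2%, from a fit whose spread comes from the LacZ pair alone. Leaving out 1 library at a time gave 0 to 1 for sg5 and 0 to 2 for the mean; the calls came without sg5 replicate 1 (CSF3R, and IL6R for the mean, beside 0.395% and 0.978% of all genes), and the group left with 1 library was taken to vary as the others do. The causes were not tested.

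Each fold change of CSF1, CSF3R, FLT3, IL6R, CSF2RB and IL6ST against LacZ kept its direction under every alternative run. Leaving out single libraries gave -0.35 to 0.017 for CSF1R in sg1, and in sg5 -0.020 to 0.19 for CSF2RA and -0.012 to 0.32 for IL3RA. For sg1 against sg5 the same gave -0.070 to 0.30 for CSF1R, -0.047 to 0.33 for CSF2RA, -0.22 to 0.14 for IL6R, -0.43 to 0.080 for FLT3, -0.17 to 0.49 for CSF3R and -0.025 to 0.30 for IL3RA. That comparison also turned with the length offset (CSF1 -0.054, CSF1R -0.059, IL6R 0.034, IL6ST 0.82), without both libraries that stood apart (CSF1 -0.060, CSF1R -0.14, CSF3R -0.14) and with protein-coding transcripts only (CSF1R -0.0099), all from values within 0.21 of 0. Levels in LacZ in CPM per kilobase of the leading transcript, a unit other than TPM whose size cannot be set beside it, were 0.705 for CSF1, 5.67 for CSF1R, 2.27 for FLT3, 11.9 for CSF3R, 13.7 for CSF2RA, 3.05 for IL3RA, 24.8 for IL6R, 5.85 for CSF2RB and 1.14 for IL6ST. The leading transcript was the one with the most counts, which for CSF3R was the retained-intron form CSF3R-210 of 6074 bases. CSF1 had fewer than 200 counts in every library, which limits its precision more than that of the other genes.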

Other observations

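Across the 6 libraries, the genes whose log2 CPM followed IL6R most closely among 13132 genes were CCR2, a chemokine receptor of monocytes (Pearson r = 0.997), APOBEC3C, a cytidine deaminase (0.997), and DIAPH1, a regulator of actin filaments (0.996). CCR2 had 3.44 and 2.94 CPM in LacZ, 14.0 and 6.75 CPM in sg1, and 8.33 and 15.5 CPM in sg5, so its highest libraries were those in which IL6R was highest, sg1 replicate 1 and sg5 replicate 2. DIAPH1 had 491 and 486 CPM in LacZ and 581 to 662 CPM otherwise. LYZ, which carried the monocyte and macrophage sum, had 131 and 128 CPM in LacZ, 368 and 182 CPM in sg1, and 249 and 280 CPM in sg5.

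For CSF1 the closest genes were TRDMT1, an RNA methyltransferase (r = 0.997), WDR91, which acts on endosomes (0.994), and LGALS9C, a galectin gene with near-identical copies (0.991). TRDMT1 had 5.81 and 5.34 CPM in LacZ and 4.73 to 5.08 CPM otherwise, a smaller difference than that of CSF1. These genes were picked as the highest of many correlations over 6 points that share their groups and libraries, and they are given as a description with no test.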
